A study of Mus musculus with 5 samples.

Results

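The stretch described here is the centromeric flank of the β-globin locus on mouse chromosome 7, from about 2.0 to 16.3 Mb on the centromeric side of the β-major promoter. It was taken by position alone, as a run of consecutive probes that makes up 12% of the 57765 probes on chromosome 7 and 1.79% of all 385000, and it gives 6877 overlapping windows of 29 probes. The position is counted from the viewpoint, and the viewpoint is the centre of the highest running mean, so the flank was in that sense chosen by measured signals, and it was picked with earlier results of the same samples in view. β-major is an adult β-globin gene that is transcribed at a very high rate in erythroid cells, and the locus carries a distant enhancer cluster, the locus control region, that folds onto the active genes. Beyond the locus itself, the chromosome folds back so that segments many megabases apart on the linear DNA come close together in the nucleus.

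4C (chromosome conformation capture on chip) reads out such contacts. Chromatin is cross-linked, cut with a restriction enzyme and ligated, inverse PCR then copies whatever was joined to a chosen viewpoint, and the product is hybridised to an array with probes next to restriction sites. A contacted region appears as a cluster of neighbouring bright probes rather than as a single one. All 5 samples came from cultured liver cells of mouse fetuses at 14.5 days post coitum, a stage when the liver is mainly an erythroid organ. The restriction enzymes used were HindIII and NlaIII. The strain, and how many livers went into each sample, are not given in the sources used here. There were 2 untreated samples (A and B), 2 samples kept for 5 h with α-amanitin (A and B), a toxin that blocks both initiation and elongation by RNA polymerase II, and 1 sample kept for 3 h with 100 µM DRB (5,6-dichloro-1-β-D-ribofuranosylbenzimidazole), a kinase inhibitor that blocks elongation. The methods give 5 h of culture for control cells, so DRB and untreated samples differ in time as well as in drug. The α-amanitin dose is given in mg/ml in the sample labels and as the same number of µg/ml in the methods. A samples were read in the Cy3 dye and B and DRB samples in Cy5, so replicate letter and dye cannot be told apart. The paper describes its duplicates as independent experiments, but the labels do not say whether A and B came from separate cultures. The p-values therefore measure only the spread between these samples. Tests with n = 5 pool untreated and drug treated samples, and at their smallest p they show only that all 5 agree in direction.

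Values are scanner intensities, called signals here, without background correction or scaling. The median signal of all probes was between 419 and 677, highest in α-amanitin A, and in the flank it was 497 and 468 in untreated A and B, 676 and 482 in α-amanitin A and B, and 477 in DRB. At most 13 flank probes of a sample were saturated. The files give no probe positions and no probe sequences, so their order was read from the number at the end of each identifier, and a place is given in Mb by counting 60 kb for every 29 probes from a viewpoint set at 98 Mb. They are approximate, and no gene could be assigned to a place. On the slide, neighbours in this order lay a median of 458 spots apart, and the rank correlation between the order and the slide column was -0.0093. Neighbours along the chromosome thus lay far apart on the glass. Arrays have no read depth, and the small number of samples limits the precision of every value.

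The flank was brighter than most of chromosome 7 in all 5 samples. The median of the running means over 29 probes was 1321 and 1448 in untreated A and B, 1030 and 1276 in α-amanitin A and B, and 1683 in DRB. On the rest of chromosome 7, away from the viewpoint, it was 1040, 1085, 968, 873 and 1432 in the same order. On the 6 other mouse chromosomes of the array it was 729, 721, 830, 586 and 1058. The flank thus stood at 1.06 to 1.46 times the rest of the chromosome, with α-amanitin A the lowest ratio and α-amanitin B the highest. Signal was not unique to this side of the viewpoint. The stretch of the same size at the same distance on the telomeric side had medians of 1427, 1607, 1309, 1357 and 1724, and the flank was lower than it in 5 of 5 samples (mean log2 ratio -0.15 ± 0.12, SD, n = 5, two-sided exact sign-flip permutation p = 0.063, the smallest this design allows). The next stretch of that size farther towards the centromere had medians of 1142, 1207, 1029, 1143 and 1514. The flank was higher than it in 5 of 5 samples, by 0.16 ± 0.10 on the log2 scale (SD, n = 5, two-sided exact permutation p = 0.063). In α-amanitin A that ratio was only 1.0. With running medians the last difference became 0.0019 (exact permutation p = 0.94, n = 5), and without probes that were dim in every sample the difference from the telomeric side became -0.022 (exact permutation p = 0.88, n = 5). The flank was picked with earlier results of these same samples in view, so the p-values in this paragraph are descriptive only. Counted by windows above the threshold defined below, the flank had more than the telomeric stretch in every sample.

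**Figure D1:**
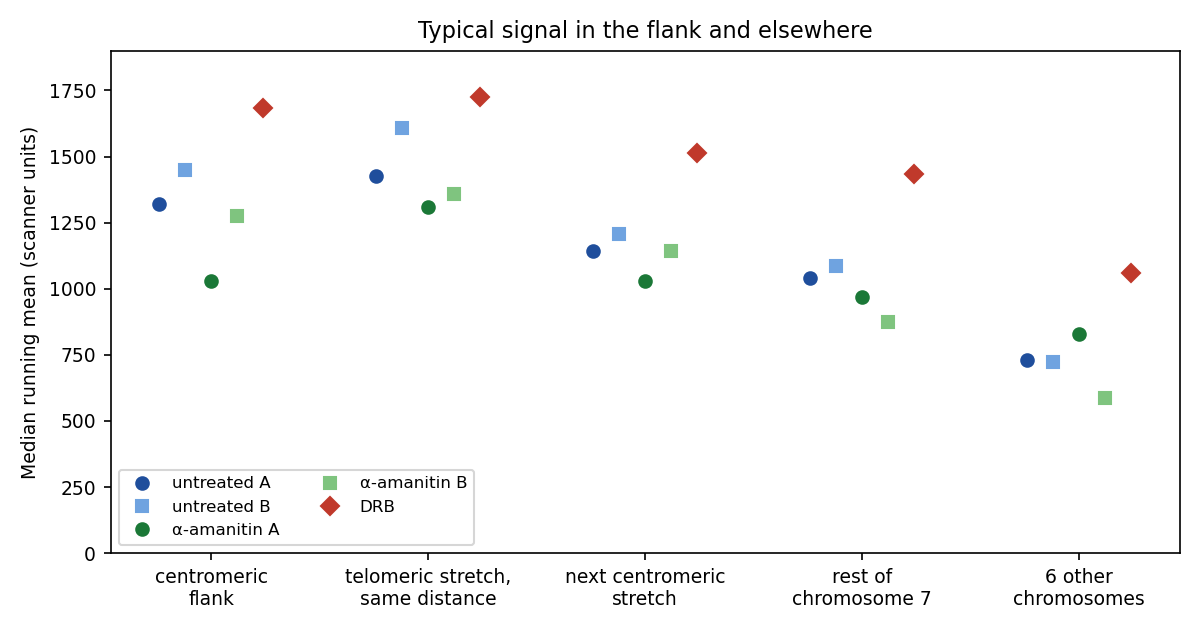
Median running mean over 29 probes (scanner units, axis from 0) in the centromeric flank, in the telomeric stretch at the same distance, in the next centromeric stretch, on the rest of chromosome 7 and on the 6 other chromosomes, with 1 point per sample. In each sample the flank point lies above those for the rest of chromosome 7 and the other chromosomes, for example at 1321, 1040 and 729 in untreated A.

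Single probes showed the same excess. A probe was called bright when its signal was above the 99th percentile of the probes on the 6 other chromosomes of the same sample, so 1% of probes are bright there by definition. The share of bright probes in the flank was 5.40% and 4.49% in untreated A and B, 3.24% and 5.11% in α-amanitin A and B, and 2.61% in DRB. All of these lie above 1%, and DRB and α-amanitin A were the lowest. The telomeric stretch at the same distance held 4.92%, 4.16%, 3.48%, 4.72% and 2.49% in the same order, less than the flank except in α-amanitin A. The cutoff was 22095 in DRB and 9962 to 13886 in the other samples. Of the flank's probes, 6107 were bright in none of the 5 samples and 439 in only 1. A further 184 were bright in 2 samples, 97 in 3, 48 in 4 and 30 in all 5. Untreated A and B shared 140 bright probes, which is 37.5% of the 373 in untreated A and 45.2% of the 310 in untreated B. Untreated A shared more, 192, with α-amanitin B (51.5% of its own and 54.4% of those in α-amanitin B) and fewer, 68, with α-amanitin A (18.2% and 30.4%). A single bright probe was therefore often not bright in the other sample of its own group.

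Signal did not fall off evenly with distance. When the flank was cut into 5 equal segments, the one nearest the viewpoint, at 2.0 to 4.86 Mb, was the brightest by the share of bright probes in all 5 samples. It held 9.78% and 7.75% bright probes in untreated A and B, 5.50% and 7.60% in α-amanitin A and B, and 4.13% in DRB. Its median running mean was 1.99 times that of the farthest segment (mean log2 ratio 0.99 ± 0.25, SD, n = 5, higher in 5 of 5 samples, two-sided exact permutation p = 0.063, the smallest possible). Since the flank was picked with results of these samples in view, that p-value too is descriptive only. The farthest segment, at 13.4 to 16.3 Mb, still held 6.37%, 4.85%, 3.11%, 6.23% and 3.11% bright probes in the same order. The middle segment, at 7.72 to 10.6 Mb, held far fewer, at 1.01%, 0.87%, 0.94%, 1.38% and 0.72%. Its median running mean of 705, 692, 722, 659 and 936 was below that of the other chromosomes in 4 samples and above it in α-amanitin B, where the other chromosomes had 586. No window of the middle segment passed the threshold defined below in any sample.

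In 20 bins of about 0.7 Mb, 3 adjoining bins from 7.7 to 9.9 Mb away formed the longest run with under 2% bright probes in every sample, and they are described as chosen by that low share. Their 1035 probes span about 2.1 Mb. They held 9, 10, 12, 11 and 9 bright probes in untreated A and B, α-amanitin A and B, and DRB, or 0.87% to 1.16%, against 2.91% to 6.20% of the probes in the rest of the flank. The highest running mean in that stretch was 2561, 3164, 6305, 2800 and 4086, at most 0.81 of the threshold. A stretch near the level of the other chromosomes thus lay between brighter stretches on both sides, in treated and untreated samples. On each side of it the share of bright probes rose to peaks. The bin at 14.1 to 14.9 Mb held 16.8% and 11.8% in untreated A and B, 6.65% and 14.5% in α-amanitin A and B, and 7.23% in DRB. The bin at 2.7 to 3.4 Mb held 18.0%, 14.2%, 11.6%, 13.0% and 7.83%. The order of the samples at these peaks differed, but untreated A was the highest at both.

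**Figure D2:**
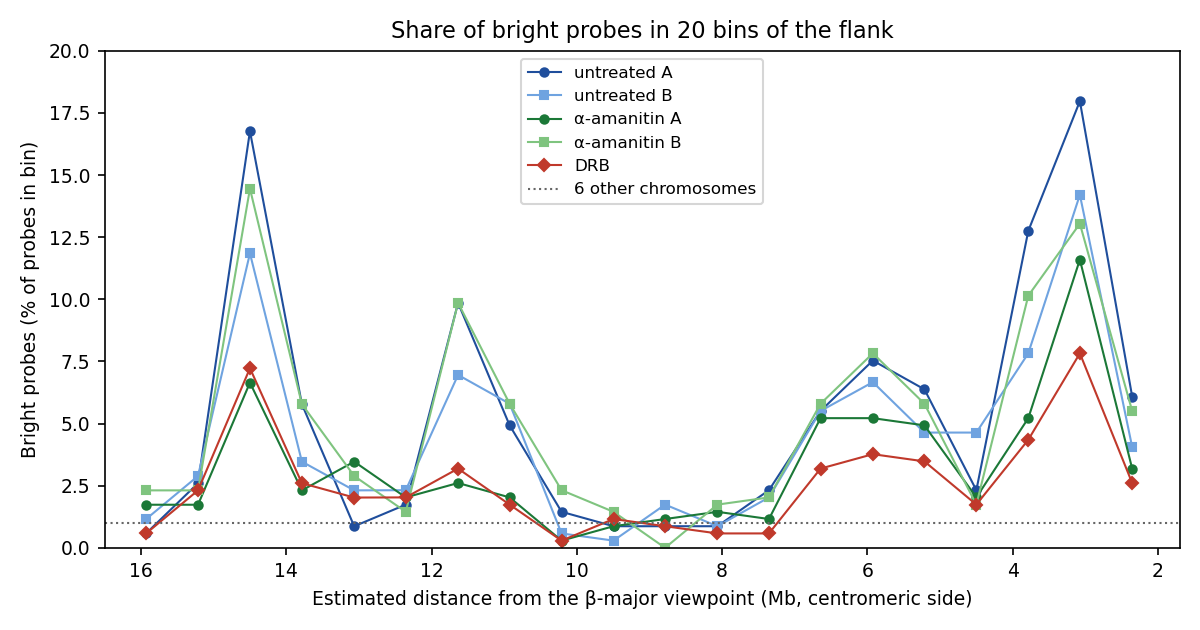
Share of bright probes (percent of the probes in a bin) in 20 equal bins of the flank against the estimated distance from the viewpoint (Mb), with 1 line per sample and a dotted line at the 1% of the 6 other chromosomes. Peaks lie at about 14.5 and 3 Mb in all 5 samples, and the bins between 7.7 and 9.9 Mb lie near the dotted line.

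To call contacts, a threshold was set for each sample as the lowest running mean at which windows of shuffled chromosome 7 data made up less than 5% of the real windows. It was 6834 and 7028 in untreated A and B, 7799 and 7035 in α-amanitin A and B, and 7948 in DRB. In the flank 383, 432, 224, 393 and 173 windows of 6877 were above it, which is 5.57%, 6.28%, 3.26%, 5.71% and 2.52%. On the other chromosomes at most 0.072% of windows were above the same threshold. Windows above threshold in both samples of a group are called double positive. The flank had 304 untreated double positive windows (4.42%), where 2.97% of all chromosome 7 windows were double positive, and 129 in α-amanitin (1.88%), where chromosome 7 had 1.62%. All of these 129 windows were also double positive in untreated samples, where on all of chromosome 7 this held for 851 of 934. In all 5 samples together, 101 flank windows and 649 chromosome 7 windows were above threshold. Adjacent untreated windows formed 11 double positive regions, of 63 on the chromosome, and regions that shared probes formed 6 places. The telomeric stretch at the same distance had 6 places as well, and the next centromeric stretch had 5. Windows above threshold in the telomeric stretch numbered 278 and 337 in untreated A and B, 147 and 280 in α-amanitin A and B, and 89 in DRB. Each count was below that of the flank. Untreated double positive windows in the telomeric stretch numbered 216.

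**Figure D3:**
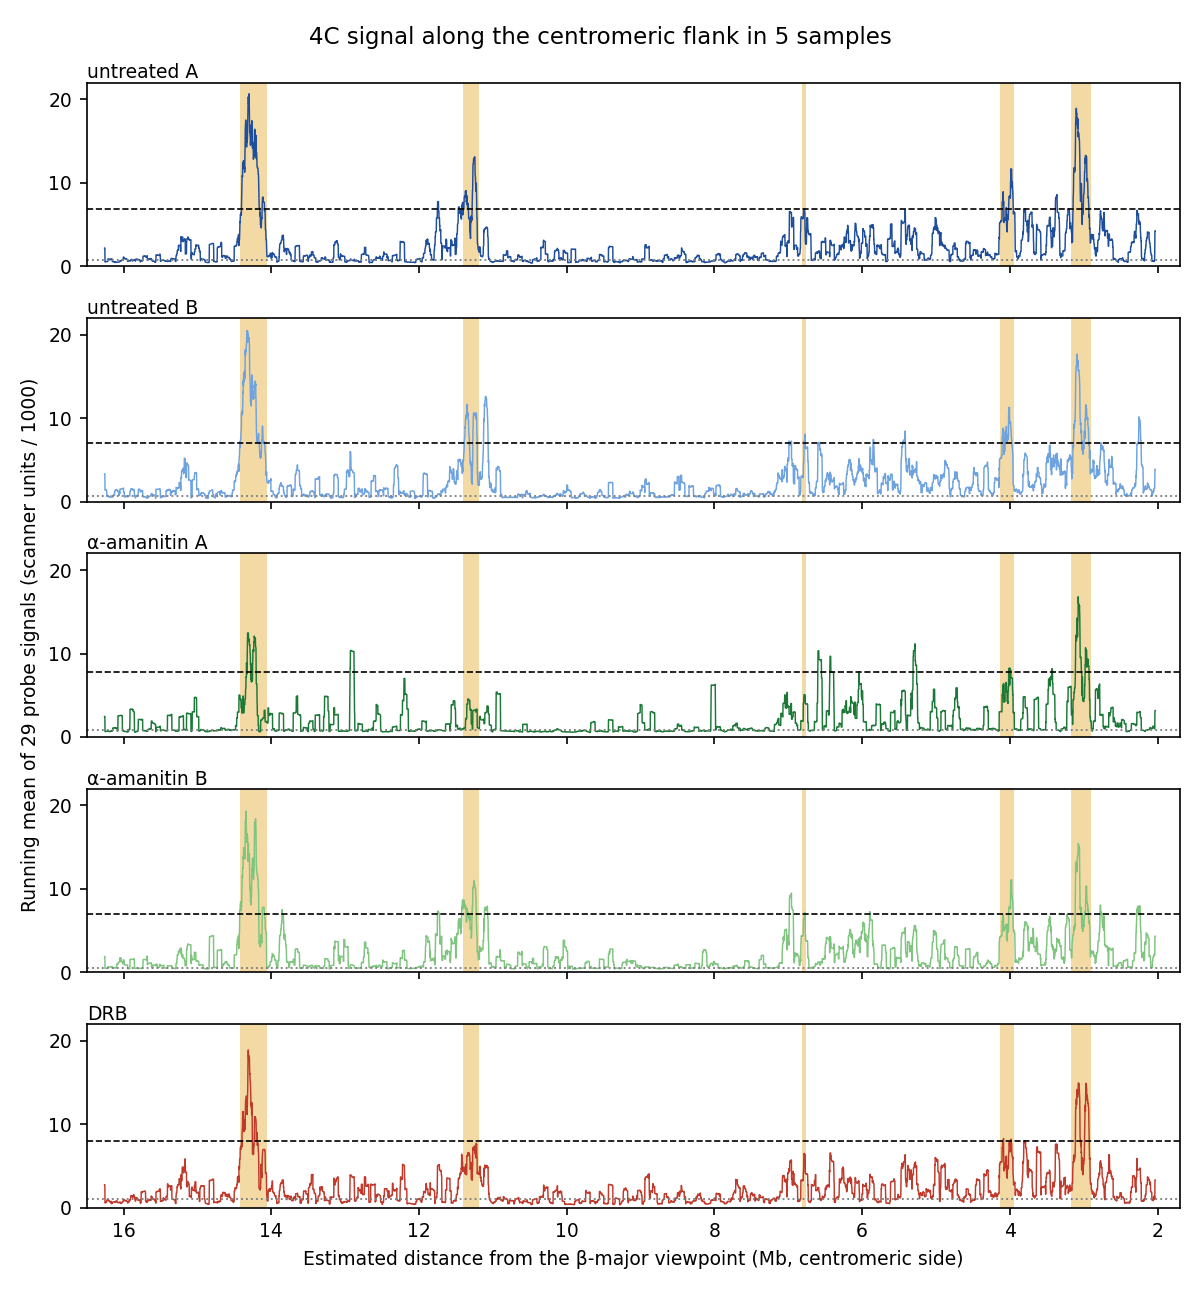
Running mean of 29 probe signals (scanner units divided by 1000) along the flank against the estimated distance from the viewpoint (Mb), with 1 panel per sample. The dashed line is the threshold of that sample, the dotted line the median of the 6 other chromosomes, and shading marks the 6 places where both untreated samples were above threshold. Peaks at 14.2, 4.0 and 3.0 Mb pass the dashed line in every panel, and those near 11 Mb do so in untreated A, untreated B and α-amanitin B.

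The highest place lay far from the viewpoint, at 14.2 Mb. It was estimated at 83.57 to 83.94 Mb and held 179 probes. Its highest running mean was 20656 and 20471 in untreated A and B, 12480 and 19334 in α-amanitin A and B, and 18909 in DRB. All 5 values were above threshold, by 1.60 times in α-amanitin A and by 2.38 to 3.02 times in the others. Of its probes, 62, 44, 23, 51 and 26 were bright in the same order. The brightest probe of the peak window gave only 9.93% to 16.4% of the window's sum, so many probes carried each peak. The centres of the 5 peaks lay within 19 probes of each other.

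The second place, 3.0 Mb from the viewpoint and estimated at 94.83 to 95.10 Mb, was nearly as high. Its 127 probes had peak running means of 18906 and 17669 in untreated A and B, 16795 and 15414 in α-amanitin A and B, and 14969 in DRB. These were 1.88 to 2.77 times the thresholds, with both untreated samples above all 3 drug treated ones. Its peaks lay within 15 probes of each other in the 5 samples. The third place that all samples shared, 4.0 Mb away and estimated at 93.87 to 94.05 Mb, was weaker. There the peaks were 11661, 11305, 8258, 11092 and 8304 in the same order, which put untreated A, untreated B and α-amanitin B at 1.58 to 1.71 times the threshold and α-amanitin A and DRB at 1.06 and 1.04 times. Its peaks lay up to 51 probes apart, more than at the other shared places.

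At the other 3 places the samples differed in which side of the threshold they fell on. The place at 11.2 Mb, estimated at 86.70 to 86.81 Mb, peaked at 13104 and 10624 in untreated A and B, 3346 and 10997 in α-amanitin A and B, and 7721 in DRB. The adjoining place at 11.4 Mb, estimated at 86.59 to 86.70 Mb, peaked at 9047, 11650, 4574, 8183 and 6628. At both, α-amanitin B was above threshold, by 1.56 and 1.16 times, while α-amanitin A reached 0.43 and 0.59 of it and DRB 0.97 and 0.83. The peak of α-amanitin A at 11.2 Mb owed 66.4% of its sum to 1 probe. The place at 6.8 Mb, estimated at 91.18 to 91.24 Mb, was only 2 windows long and just above threshold in the untreated samples, with peaks of 6888 and 7287, or 1.01 and 1.04 times. Over the same windows the drug treated samples had 5078 (α-amanitin A), 6512 (α-amanitin B) and 6514 (DRB), or 0.65, 0.93 and 0.82 of their thresholds. α-amanitin B was above threshold in windows that overlap this place, at 1.02 times. The 6 places hold 7.76% of the flank's probes. They were chosen by high signal in both untreated samples, which favours high untreated values in them. Their share of its summed signal was 31.4% and 28.5% in untreated A and B, 21.0% and 28.4% in α-amanitin A and B, and 25.1% in DRB.

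**Figure D4:**
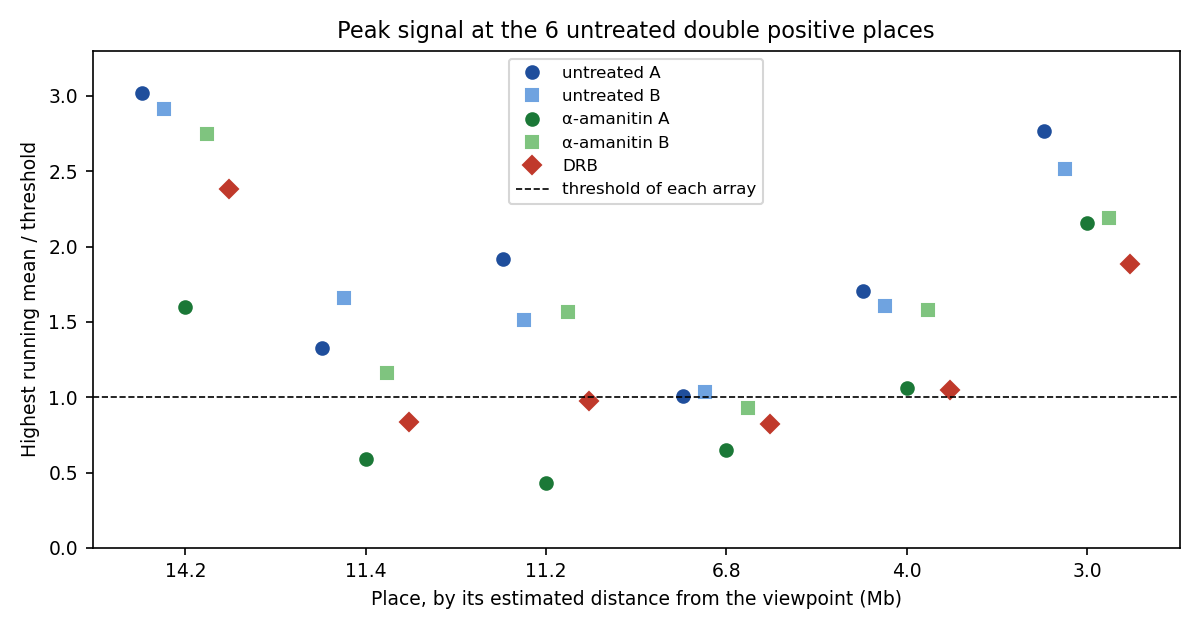
Highest running mean at each of the 6 places, divided by the threshold of the same sample, with 1 point per sample and the dashed line at 1. All 5 points lie above the line at 14.2, 4.0 and 3.0 Mb, with α-amanitin A at 1.60 and the other samples at 2.38 to 3.02 at the first of these, while α-amanitin A and DRB lie below it at 11.4 and 11.2 Mb.

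The comparison of α-amanitin with untreated samples addresses whether contacts of the locus need ongoing transcription. Of the 11 untreated regions, 4 had a double positive window in α-amanitin, 3 had a window above threshold in 1 α-amanitin sample and 4 in neither. Counted by window, 129 of 304 untreated double positive windows of the flank were double positive in α-amanitin, beside 851 of 1715 on all of chromosome 7. Put as places, 3 of 6 were double positive in α-amanitin, 2 that adjoin each other were above threshold in α-amanitin B alone and 1 in neither. The 4 regions of the first kind lie in the places at 14.2, 4.0 and 3.0 Mb. Of the 4 regions found in neither, 1 was the place at 6.8 Mb, 2 were 62 and 81 kb long and belonged to the place at 4.0 Mb, and 1 was a single window in the place at 3.0 Mb. Their untreated peaks were 1.01 to 1.30 times the threshold. Over the same windows the peaks of the α-amanitin samples were 0.65 to 0.99 of their thresholds. In the other direction, the 11 α-amanitin regions formed 3 places, and all 3 overlapped untreated double positive windows. No place was double positive after α-amanitin and not before.

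The outcome depended on which α-amanitin sample was read. α-amanitin A had 224 flank windows above threshold and α-amanitin B 393, while untreated A and B had 383 and 432. All 3 regions found in 1 α-amanitin sample were found in B. With α-amanitin A left out, 7 of 11 regions were above threshold in α-amanitin and 4 were not, and with α-amanitin B left out, 4 were and 7 were not. α-amanitin A also had the highest median signal of the 5 samples, and the part of that in the result was not tested. Counting every stretch above threshold in any sample gave 20 places in the flank. Of these, 3 were found in all 5 samples, 2 in 3 samples, 8 in 2 samples and 7 in a single sample. Of those 7, α-amanitin A had 4, α-amanitin B had 2 and untreated B had 1, while untreated A and DRB had none. In the 4 of α-amanitin A the peak running mean was 7828 to 11163, but the median probe of the peak window was only 705 to 983 and 5 to 7 of its 29 probes were bright. Such low medians were not limited to these 4, since the median probe of α-amanitin A was 1379 at the place at 14.2 Mb and 880 at that at 4.0 Mb, and those of untreated A and B were 1028 and 980 at 6.8 Mb.

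The typical level of the flank relative to the rest of chromosome 7 did not separate the groups. The log2 ratio of the medians was 0.35 and 0.42 in untreated A and B and 0.09 and 0.55 in α-amanitin A and B. The untreated values lie between the α-amanitin ones. The mean difference was -0.06 (two-sided exact permutation p = 1, n = 2 and 2, smallest possible 0.33). Without α-amanitin A it was 0.17. With every sample kept it was 0.056 in windows of 59 probes and 0.016 without dim probes, so its direction was not stable.

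Window by window, limma was applied to log2 quantile normalised signals in 13261 non-overlapping windows of 29 probes on all 7 chromosomes, of which 237 lie in the flank. No window was called at an adjusted p below 0.05, in the flank or elsewhere (0% of 13261). At an unadjusted p below 0.05 there were 17 flank windows (7.17%), 7 higher and 10 lower in α-amanitin, where 3.54% of all windows passed. The median log2 difference was -0.12 in the flank, -0.03 on chromosome 7 and 0.01 over all windows, and 142 of the 237 windows were lower and 95 higher. Without α-amanitin A the flank median was 0.01, and without α-amanitin B it was -0.37.

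The flank windows with the smallest p-values were at 4.9, 15.6, 14.3, 13.2 and 3.1 Mb from the viewpoint, and each had an adjusted p of 0.88 by limma with Benjamini-Hochberg adjustment. The first, estimated at 93.1 Mb, had log2 signals of 11.43 and 11.17 in untreated A and B and 9.35 and 9.07 in α-amanitin A and B, a difference of -2.09 (SE 0.41). The groups did not overlap there, yet the difference was -0.66 when probe signals were averaged on the log2 scale. The window at 82.4 Mb was higher in α-amanitin, with 8.94 and 8.82 against 10.34 and 9.80 (difference 1.20, SE 0.29). The window at 84.8 Mb was also higher, with 8.90 and 9.09 against 10.35 and 9.95 (1.15, SE 0.30). These fell to 0.16 and 0.21 with log2 averaging, and both lie outside the 6 places. The other 2 windows lie in the highest places. At 83.7 Mb the log2 signals were 14.40 and 14.27 untreated and 13.36 and 13.86 with α-amanitin (difference -0.73, SE 0.18). At 94.9 Mb they were 14.27 and 14.09 against 13.61 and 13.81 (-0.47, SE 0.13). Unlike the rest, both became larger with log2 averaging, at -1.57 and -1.10. The median SE of flank windows was 0.48 in the main fit and 0.15 with log2 averaging, so sizes alone do not rank the windows. With log2 averaging the limma adjusted p was 0.64 at 83.7 Mb and 0.75 at 94.9 Mb. It was 0.29 at 93.1 Mb, 0.66 at 82.4 Mb and 0.59 at 84.8 Mb.

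The DRB sample had no replicate, so its differences have no test. Of the 11 untreated regions, 5 had a window above threshold in DRB, and as places these were the 3 at 14.2, 4.0 and 3.0 Mb that both α-amanitin samples also showed. Of the 3 α-amanitin places, all 3 were above threshold in DRB, and no stretch of the flank was above threshold in DRB alone. A window was counted as different when DRB differed from the untreated mean by at least 1 on the log2 scale and by more than the untreated samples differed from each other. In the flank 29 of 237 windows were lower by this measure (12.2%), where 8.34% of chromosome 7 windows and 2.29% of all windows were lower, and 6 were higher (2.53%), where 3.82% of chromosome 7 windows and 5.46% of all windows were higher. The median difference was -0.22 in the flank, -0.10 on chromosome 7 and 0.01 over all windows. After quantile normalisation, flank windows thus tended to be dimmer in DRB, as did chromosome 7 windows in general. On unscaled signals DRB had the highest median running mean of the 5 samples in the flank (1683) and on the rest of chromosome 7 (1432). Against untreated B alone, which was read in the same dye as DRB, 50 flank windows were lower (21.1%, with 14.3% on chromosome 7 and 7.19% of all windows) and 15 higher (6.33%, with 7.13% and 8.32%). With log2 averaging 9 were lower (3.8%, with 2.36% and 0.354%), and no window was higher in the flank or elsewhere.

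Among the 23 flank windows above threshold in at least 1 sample, the largest falls in DRB were at 91.4, 92.2 and 83.8 Mb. At 91.4 Mb the normalised signal was 1064 and 6548 in untreated A and B, 8791 and 1243 in α-amanitin A and B, and 759 in DRB. The difference of -1.80 on the log2 scale was smaller than the difference between the untreated samples there. At 92.2 Mb the values were 5077, 7986, 1349, 3336 and 2223, and DRB fell by 1.52. At 83.8 Mb, in the highest place, they were 16421, 13016, 10497, 13151 and 5428, and DRB fell by 1.43 and was the lowest of the 5 samples. The largest rises were 0.75 at 86.3 Mb, 0.41 at 85.1 Mb and -0.09 at 92.7 Mb, the last of which is no rise, and none of them passed the untreated spread. At 86.3 Mb the untreated samples were 6504 and 919, the α-amanitin samples 827 and 7542, and DRB 4101.

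**Figure D5:**
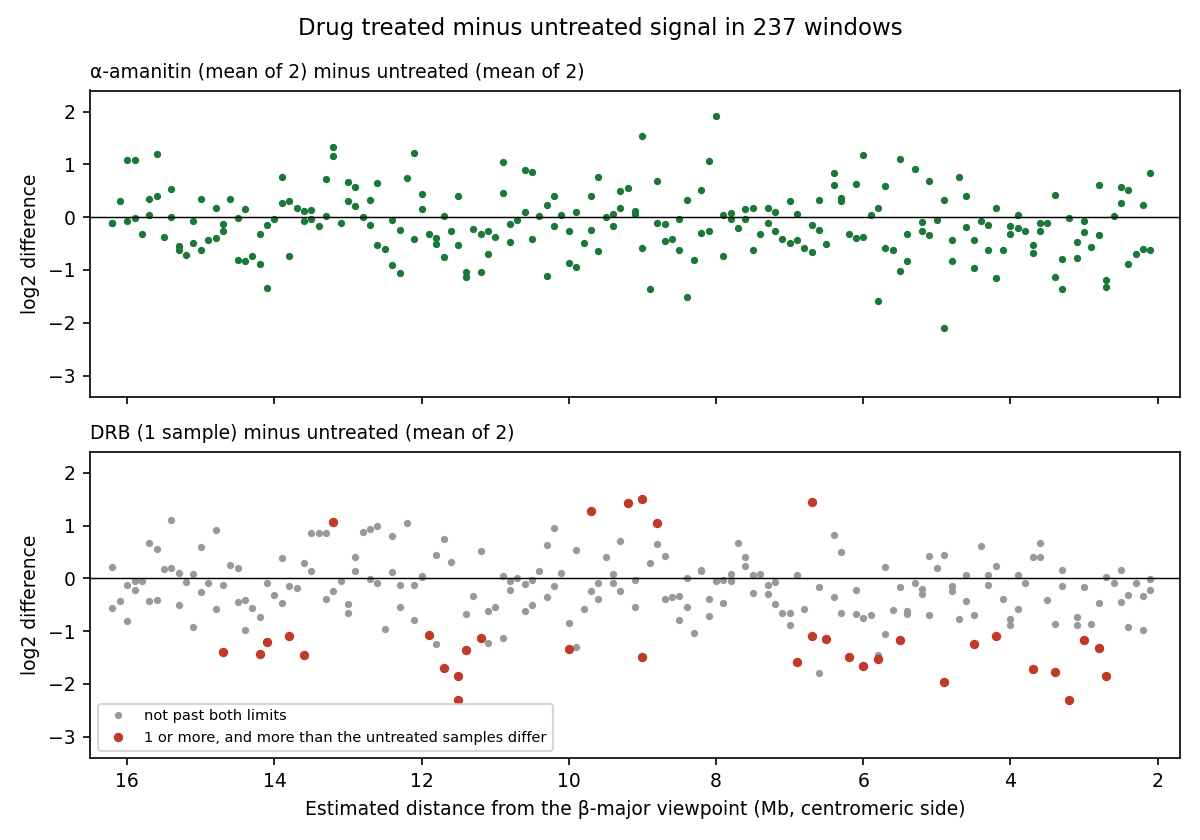
Log2 difference of quantile normalised signal between drug treated and untreated samples in the 237 flank windows of 29 probes, against the estimated distance from the viewpoint (Mb), with 1 point per window. The upper panel is α-amanitin (mean of 2) and has no window called by limma, and the lower panel is DRB (1 sample), with the 35 windows past both limits in red, 29 of them below 0.

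Rank correlations of the running means over the 6877 flank windows describe how alike the profiles are. The windows overlap and are not independent, and pairs share samples. Untreated A and B had a Spearman correlation of 0.69 and the α-amanitin pair one of 0.54. Between these groups the 4 pairs gave a mean of 0.66 (SD 0.12), from 0.50 for untreated A with α-amanitin A to 0.78 for untreated A with α-amanitin B. The pairs of untreated B were in between, at 0.69 with α-amanitin A and 0.68 with α-amanitin B. DRB had 0.74 with untreated A and 0.65 with untreated B. The profile of α-amanitin B was thus closer to that of untreated A than to that of its own duplicate. Correlation was lowest where signal was lowest. Over the 10 pairs of samples its median was 0.72 in the nearest segment, 0.63 in the next, 0.34 in the quiet middle segment, 0.52 in the one beyond and 0.67 in the farthest.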

How the data were processed

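The authors deposited the scanner intensity of each probe of NimbleGen arrays, extracted with NimbleScan 2.3.19, per the file headers, neither corrected for background nor normalized. The other dye of each array held a further sample, not analysed here. The 5 samples lie on 5 slides. Chromosome 7 probes were sorted by the last 10 digits of the identifier, and ranks 30001 to 36905 (6905 probes, viewpoint at rank 37873) form the flank. The chromosome's rest leaves out 967 probes on each side of the viewpoint. Members and lists were chosen with earlier results of these data known.

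Running means of 29 probes were taken on uncorrected intensity. Per sample, shuffled chromosome 7 signals set the threshold (false discovery rate below 0.05), as in the study's methods. The number of shuffles, 100 with set seeds, was chosen here. The 63 untreated regions found on chromosome 7 are more than the paper reports. Correlations, limma and DRB differences used quantile normalized intensity over all probes. limma 3.58.1 (R 4.3.3; lmFit, eBayes with trend, Benjamini-Hochberg) was fitted to 13261 windows of 4 samples. Other steps used Python 3.11.15, numpy 2.4.6, scipy 1.17.1, pandas 2.3.3 and matplotlib 3.10.9. Region calling and the limma fit were tried on simulated data. The planted clusters were denser in high signals than the weakest places here, so calls near the threshold were not tested.

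The rule for what is named took the 5 places with the highest untreated peaks, untreated places in neither α-amanitin sample, α-amanitin places not in untreated samples, the 5 flank windows with the smallest limma p and the 3 largest DRB differences in each direction among windows above threshold in at least 1 sample. Alternatives varied the window, averaging, normalization, background correction (normexp, offset 50), false discovery rate, joining, filters, blocks and samples left out. Exact permutation tests were two-sided. The deviations of samples with the same letter had a correlation of -0.43 over the 237 flank windows (-0.21 over all windows), so same-letter samples did not deviate alike. How the samples were paired cannot be told from these values. Probe sequences and positions in build m34 are not used here.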

Additional observations from a re-analysis of the deposited data

How the results depend on the processing

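With 20 other seeds for the shuffles there were 10 to 12 regions and 5 to 7 places. The causes of the larger moves that follow were not tested. A running median gave 27 regions and 11 places, with 8 regions double positive in α-amanitin, 8 in neither and 10 in DRB. Dropping the brightest probe of each window gave 18 regions and 10 places, and a threshold without the probes around the viewpoint 18 regions. Regions joined over gaps of at most 100 kb numbered 5, with 1 in neither α-amanitin sample and 3 in DRB. Regions in neither numbered 1 with windows of 15 probes, 2 with 59 and 7 at a false discovery rate below 0.01. That rate and quantile normalization each left 3 in DRB.

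Leaving out 1 sample gave 11 to 21 regions, 6 to 11 places, 4 to 7 double positive in α-amanitin, 4 to 10 in neither and 5 to 6 in DRB (a single sample stands for its group there). The α-amanitin level ran from -0.29 to 0.17, and reversed to 0.056 with windows of 59 probes and 0.016 without dim probes. The 2 differences from other stretches and that between the nearest and farthest segments kept their direction under each alternative. With log2 averaging the Spearman correlation was 0.83 for the untreated pair, 0.73 for the α-amanitin pair and 0.83 with DRB, and with a running median it was 0.73 for the α-amanitin pair. DRB windows numbered 2 at a limit of 2, 9 with log2 averaging and 65 against untreated B alone. limma called 0 flank windows under each of the 12 alternatives, and 1 window outside it with log2 averaging. With the replicate letter as a replicate block, none were called (0) and 9 passed 0.05 unadjusted (3.80%, with 2.60% of all windows). Pairing A with B instead, a choice made after seeing the data, gave 0 and 32. No 2 samples share a slide, so the slide as a block was not run.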

Other observations

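The log2 signals of neighbouring probes in the flank had a Pearson correlation, across probes that are not independent, of 0.27 and 0.28 in untreated A and B, 0.18 and 0.27 in α-amanitin A and B, and 0.20 in DRB. At 29 probes apart it was 0.14, 0.14, 0.041, 0.13 and 0.089, and at 100 probes apart 0.064, 0.11, 0.039, 0.057 and 0.039. Of the running numbers in the flank's identifiers 81.1% had a probe, against 72.0% on all of chromosome 7. If positions are estimated from these numbers instead of from probe order, the highest place moves from 83.8 to 85.2 Mb and the place nearest the viewpoint from 95.0 to 95.1 Mb.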
